A study of Mus musculus with 10 samples.

Results

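The heme synthesis enzymes described here were the 7 genes Alas1, Alad, Uros, Urod, Cpox, Ppox and Fech, taken by gene symbol from a table of 25229 rows. All 7 were among the 14251 genes with enough counts to be tested. RNA came from cultured adipose stem and precursor cells (ASPCs) of wild-type mice, sorted as CD45-CD31-Pdgfra+ cells from the stromovascular fraction of perigonadal white adipose tissue (gWAT) and grown to confluence without passaging. The protocols describe the groups alike apart from the treatment, which was 100 nM FICZ in one and DMSO, the vehicle, in the other. FICZ is a tryptophan derivative that binds the aryl hydrocarbon receptor (AHR), a ligand-activated transcription factor. Lysates were taken after 6 hr. There were 5 DMSO and 5 FICZ libraries, each group numbered 1 to 5. What a number marks is not stated, and same-numbered libraries are called pairs from their correlation, as given below. The labels do not give the age or sex of the mice, or say whether libraries came from separate mice, so p-values measure the spread between these cultures.

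Heme is an iron-containing ring that cytochromes, catalase and cytochrome P450 enzymes carry as their cofactor. Its synthesis starts in the mitochondrion with aminolevulinate synthase, passes through the cytosol and ends in the mitochondrion, where iron is inserted. AHR induces P450 enzymes of the CYP1 family, and these are hemoproteins, so the comparison asked whether the transcripts of the enzymes that make heme differed in ASPCs after 6 hr of an AHR ligand.

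AHR binds DNA at short sites whose core is GCGTG, and the promoter windows of the enzymes were searched for these letters on either strand (the other strand reads CACGC). Each window ran from 250 bases before to 50 bases after a RefSeq transcript start on GRCm38.p6. There were 9 windows for 6 of the enzymes, and Fech had no entry. The core occurred in windows of Cpox, Alas1, Alad and Ppox and not in those of Uros or Urod, which is a description of letters and not of binding. Of all 32851 windows, 32.4% held the core, and of the 14263 windows of genes tested, 48.7% did. Of the 9 windows of the enzymes, 66.7% did. The 2 windows of Alas1 hold the same site, as do the 2 of Alad, and the shares were not tested against each other. Stretches of 25 bases around each core follow, with the core in capitals and the gene's own strand read 5′ to 3′. Cyp1a1 is given as a known AHR target.
Cpox, chr16:58670159-58670183, plus strand: caggaggcccGCGTGcgagcagcag
Alas1, chr9:106247938-106247962, minus strand: ttcggcgcgcGCGTGcgcgcggcag
Alad, chr4:62520043-62520067, minus strand: gccccgctcaGCGTGgatctggccg
Ppox, chr1:171281186-171281210, minus strand: gaaacgcagtCACGCaggccgccag
Cyp1a1, chr9:57697549-57697573, plus strand: agataaggagGCGTGgccaacagac

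The core in Cpox began 39 bases before the RefSeq start. It was the only one in the 250 bases upstream, which lie at chr16:58669958-58670207. These are shown because Cpox was the enzyme whose FICZ and DMSO libraries did not overlap. Whether Cpox passed the adjusted threshold depended on the test, as given below.
Cpox upstream, plus strand: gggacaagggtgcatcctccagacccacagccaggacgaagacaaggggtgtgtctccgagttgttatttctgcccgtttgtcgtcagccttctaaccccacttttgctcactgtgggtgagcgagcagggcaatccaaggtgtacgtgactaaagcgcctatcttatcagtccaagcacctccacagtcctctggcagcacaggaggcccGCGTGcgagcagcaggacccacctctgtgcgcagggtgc

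The depth and the make-up of the libraries were as follows. Total counts ranged from 38328611 to 50210111, so that 3 counts, taken as the smallest detectable level, equalled 0.0603 to 0.0787 CPM (the count relative to library size, after scaling by TMM factors). The progenitor markers, Pdgfra among them, made up 0.566% to 0.884% of counts, and Pdgfra itself stood at 1319.6 ± 88.3 CPM without and 1387 ± 118 CPM with FICZ (SD, n = 5). Markers of macrophages (0.00241% to 0.00628%), endothelial cells (0.00629% to 0.00863%) and adipocytes (0.000411% to 0.00217%, with Lep at 0) were far lower. Of 10 erythroid markers, Hbb-bs, Hbb-bt, Hba-a1, Hba-a2 and Gata1 were at 0 in all libraries, Slc4a1 stayed under 10 counts, and the hemoglobin genes are near-identical copies whose reads may be split or dropped. The 13 hepatocyte markers took 0.171% to 0.418% of counts in 9 libraries and 1.06% in DMSO replicate 5, and all 13 had lower fitted values with FICZ (median log2 fold change -1.11, with 0 past the adjusted threshold of edgeR or of DESeq2 and 12 at an unadjusted p of 0.05 or less in each, where edgeR had 3.49% of all genes lower at that p). The size and the unadjusted calls rested on DMSO replicate 5. Without it all 13 were still lower, but the median was -0.50 with 0 at that unadjusted p. There were also 0 with limma-voom (median -0.76) and with the replicate block in edgeR (-0.76) or DESeq2 (-0.76). The markers were lower with FICZ in pairs 1, 4 and 5 and higher in pairs 2 and 3, where the log2 difference of Alb was 0.37 and 0.43. Fewer cells of a type and less RNA per cell cannot be told apart in bulk RNA.

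Of the 7 enzymes, Cpox was the one whose FICZ and DMSO libraries did not overlap. Cpox encodes coproporphyrinogen oxidase, the mitochondrial enzyme that decarboxylates coproporphyrinogen III to protoporphyrinogen IX, and lies on chromosome 16 (58670292 to 58717636 of GRCm38, plus strand). It had 59.4, 60.4, 57.6, 47.4 and 54.4 CPM in DMSO replicates 1 to 5 and 78.9, 88.6, 71.8, 68.9 and 73.4 CPM in FICZ replicates 1 to 5. The lowest FICZ library thus lay above the highest DMSO library. The mean was 55.8 ± 5.27 CPM for DMSO against 76.3 ± 7.78 CPM for FICZ (SD, n = 5), a 1.37-fold difference (95% interval 1.19 to 1.57). Of the genes tested, 0.351% had FICZ libraries that lay wholly above the DMSO libraries, and 0.47% had groups that lay apart in either direction.

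**Figure D1:**
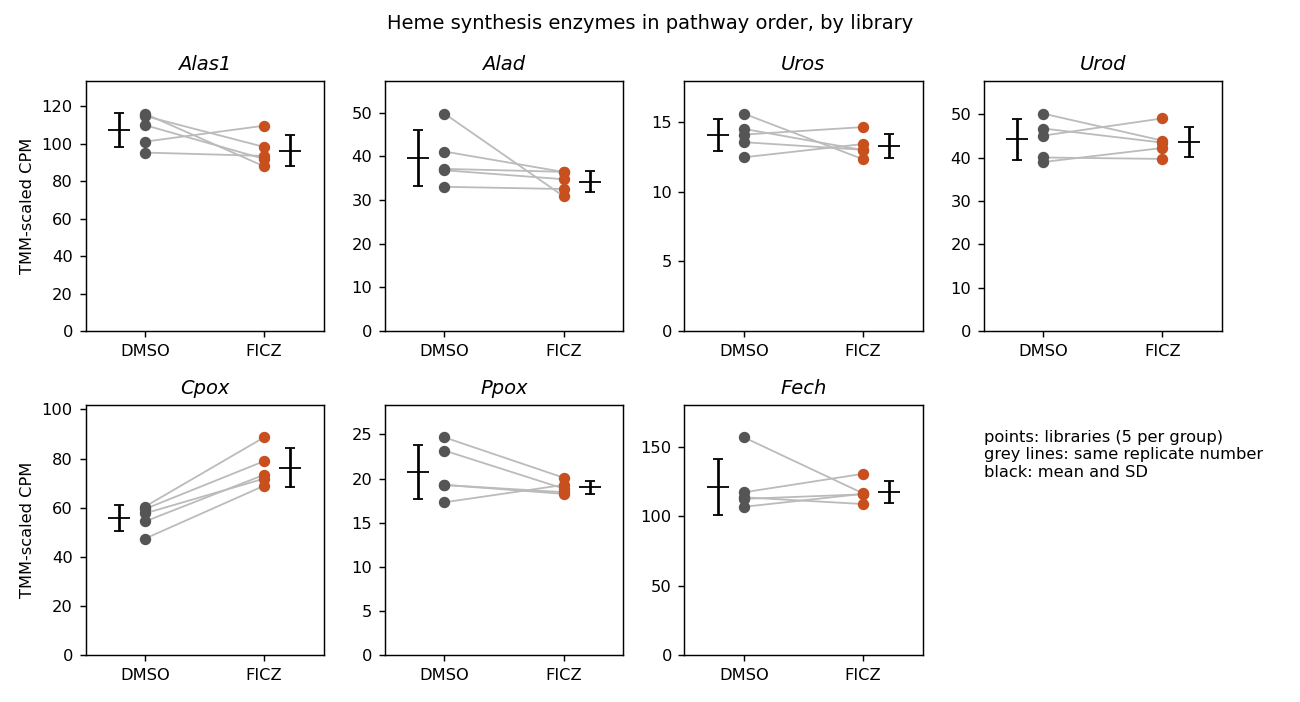
TMM-scaled CPM (y axis) of the 7 enzymes in pathway order, with 1 point per library (5 DMSO, 5 FICZ), grey lines between libraries of the same replicate number, and the mean and SD in black. The Cpox points of FICZ, 68.9 to 88.6 CPM, lie above those of DMSO, 47.4 to 60.4 CPM, while the points of the other enzymes overlap.

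In the same-numbered pairs the difference in Cpox was of like size. It was 0.41, 0.55, 0.32, 0.54 and 0.43 on the log2 scale in pairs 1 to 5. Cpox was higher in 5 of 5 pairs, as were 4.32% of all genes tested. A two-sided exact permutation test on log2 CPM gave p = 0.00794, the smallest that 5 against 5 allow. How far this stands against all genes depended on the test. EdgeR's quasi-likelihood test gave a log2 fold change of 0.45 (standard error 0.09, unadjusted p = 0.000437), the 9th smallest p of all genes, and an adjusted p of 0.636. In edgeR with a block for the replicate number it was 0.45 (standard error 0.06, adjusted p = 0.150). DESeq2, the tool named in the methods of the study, put Cpox past the threshold (log2 fold change 0.45, adjusted p = 0.0457), and more so with the block (0.45, adjusted p = 0.000657). By the adjusted p over all genes, 0 of the 7 enzymes passed with edgeR, where 0.0211% of all genes did, and also 0 with the block, where 0.0561% did. With DESeq2 1 of 7 passed (0.0845% of all genes), and again 1 with the block (0.14%). At an unadjusted p of 0.05 or less in edgeR there was 1 of 7, against 4.82% of all genes, and that 1 was higher with FICZ, where 1.33% of all genes passed on the higher and 3.49% on the lower side. Without any 1 library the log2 fold change of Cpox stayed between 0.39 and 0.49.

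Alas1 and Alad, the enzymes of the first steps, had lower means with FICZ, but their libraries overlapped. Alas1 encodes the housekeeping aminolevulinate synthase, the rate-limiting enzyme of the pathway in cells other than red cell precursors (chromosome 9, 106233455 to 106248654, minus strand). It had 114.7, 95.2, 101.05, 109.8 and 115.95 CPM in DMSO replicates 1 to 5 and 98.2, 93.4, 109.5, 91.8 and 87.9 CPM in FICZ replicates 1 to 5. The FICZ values were lower in 4 of 5 pairs, and pair 3 went the other way. The means were 107 ± 8.96 and 96.2 ± 8.34 CPM (log2 fold change -0.16, 95% interval -0.34 to 0.03, adjusted p = 0.999 with edgeR, and p = 0.0714 in the exact permutation test). Of the exonic bases of Alas1, 465 of 6174 overlap the antisense gene 4930500F10Rik, and since the strand setting of the counting is not given in the sources used here, reads of the 2 genes cannot be told apart there.

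Alad encodes aminolevulinate dehydratase, which joins aminolevulinate into porphobilinogen (chromosome 4, 62509169 to 62519918, minus strand). It had 41.1, 33.03, 37.1, 36.8 and 49.8 CPM in DMSO replicates 1 to 5 and 36.4, 32.5, 36.5, 34.8 and 30.9 CPM in FICZ replicates 1 to 5. The differences were small in pairs 2, 3 and 4 and largest in pair 5, where the DMSO library was the highest of all 10. Alad was lower in 5 of 5 pairs, as were 2.81% of all genes tested. The means were 39.6 ± 6.37 and 34.2 ± 2.46 CPM (log2 fold change -0.21, 95% interval -0.45 to 0.03, adjusted p = 0.999 with edgeR, and p = 0.0873 in the exact permutation test).

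Uros and Urod, cytosolic enzymes of the middle of the pathway, differed little between the groups. Uros encodes uroporphyrinogen III synthase, which closes the ring (chromosome 7, 133686243 to 133710072, minus strand). It had 14.1, 12.5, 13.5, 14.5 and 15.6 CPM in DMSO replicates 1 to 5 and 14.6, 13.4, 12.99, 12.97 and 12.3 CPM in FICZ replicates 1 to 5. The groups overlapped, with means of 14.03 ± 1.16 and 13.3 ± 0.853 CPM (log2 fold change -0.08, 95% interval -0.28 to 0.11, adjusted p = 0.999 with edgeR). Urod encodes uroporphyrinogen decarboxylase, which makes the substrate of Cpox (chromosome 4, 116989965 to 116994413, minus strand). It had 45.1, 40.1, 39.03, 46.7 and 50.2 CPM in DMSO replicates 1 to 5 and 49.1, 39.7, 42.3, 43.5 and 43.9 CPM in FICZ replicates 1 to 5. The FICZ libraries lay inside the DMSO range, with means of 44.2 ± 4.66 and 43.7 ± 3.42 CPM (log2 fold change -0.02, 95% interval -0.21 to 0.18, adjusted p = 0.999 with edgeR).

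The enzymes after Cpox did not share its difference. Ppox encodes protoporphyrinogen oxidase, which oxidises the product of Cpox to protoporphyrin IX (chromosome 1, 171275990 to 171281186, minus strand). It had 17.3, 19.3, 19.3, 23.2 and 24.7 CPM in DMSO replicates 1 to 5 and 19.3, 18.5, 18.3, 18.9 and 20.1 CPM in FICZ replicates 1 to 5. The FICZ libraries lay close together inside the DMSO range, with means of 20.7 ± 3.06 and 18.99 ± 0.732 CPM (log2 fold change -0.13, 95% interval -0.35 to 0.10, adjusted p = 0.999 with edgeR). Ppox overlaps B4galt3 on the opposite strand over 791 of its 4515 exonic bases, so part of its count is uncertain. For Cpox the like overlap, with Gpr15, is 204 of 6661 bases.

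Fech encodes ferrochelatase, which inserts iron to complete heme (chromosome 18, 64452914 to 64490251, minus strand). It had 112.6, 113.7, 106.9, 117.3 and 157 CPM in DMSO replicates 1 to 5 and 115.9, 108.9, 116.2, 130.7 and 116.6 CPM in FICZ replicates 1 to 5. DMSO replicate 5 stood above all other libraries. The means were 121 ± 20.2 and 118 ± 7.95 CPM (log2 fold change -0.05, 95% interval -0.28 to 0.19, adjusted p = 0.999 with edgeR). With edgeR on all libraries, none of the 6 enzymes other than Cpox had an interval that reached above 0.19, and the interval of Cpox began at 0.25.

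**Figure D2:**
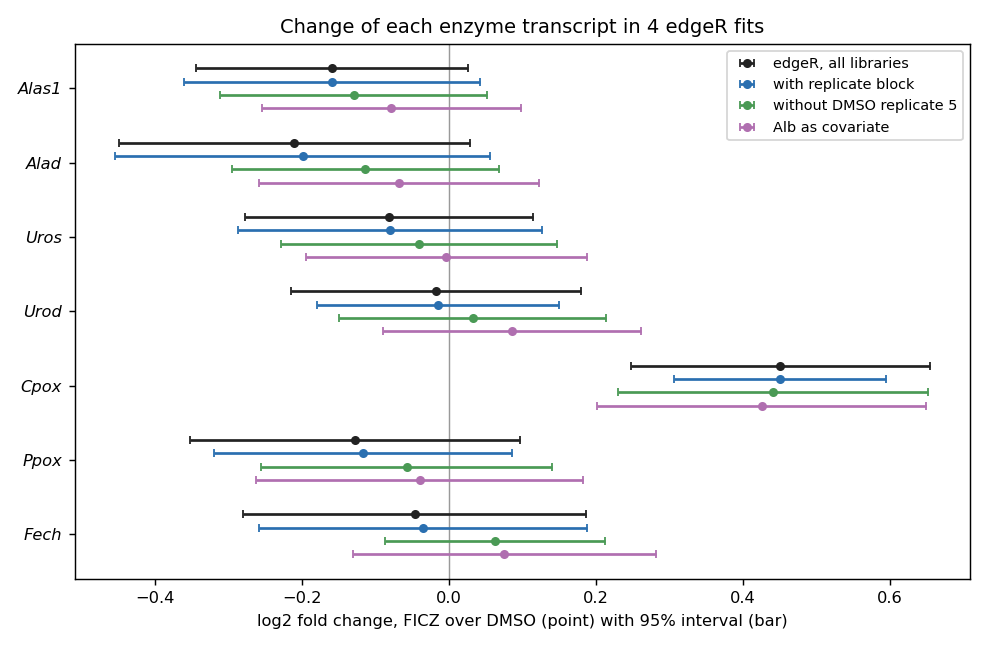
Log2 fold change of FICZ over DMSO (x axis; points, with 95% intervals as bars) of each enzyme in 4 edgeR fits: all libraries, with a block for the replicate number, without DMSO replicate 5, and with Alb (log2 CPM) as a covariate. Cpox lies between 0.43 and 0.45 in all 4, and the intervals of the other enzymes include 0.

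Because Cpox was higher while its neighbours were not, its level relative to the rest of the pathway was described for each library. The log2 ratio of Cpox to the geometric mean of the other 6 enzymes was 0.49, 0.64, 0.53, 0.10 and 0.09 in DMSO replicates 1 to 5 and 0.90, 1.203, 0.81, 0.77 and 0.92 in FICZ replicates 1 to 5. The groups did not overlap, with means of 0.37 ± 0.25 and 0.92 ± 0.17 (SD, n = 5). This ratio is free of the scaling of each library, and it was not tested. The lowest ratios were those of DMSO replicate 4, which had the lowest Cpox of all libraries, and of DMSO replicate 5, which had the highest values of the other 6 enzymes.

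DMSO replicate 5 had the highest level of all 10 libraries for 6 of the 7 enzymes, all except Cpox. It was also the library with the most hepatocyte (1.06%), macrophage (0.00628%) and endothelial (0.00863%) marker RNA. The next library for each had 0.418%, 0.00382% and 0.00862% of counts. Over the 7 enzymes the median log2 fold change was -0.08 (0.01 over all genes tested), with 1 higher and 6 lower. Without DMSO replicate 5 the median was -0.04, with 3 higher and 4 lower, and the values were -0.13 for Alas1, -0.11 for Alad, -0.04 for Uros, 0.03 for Urod, 0.44 for Cpox, -0.06 for Ppox and 0.06 for Fech. With Alb, the albumin gene, as a covariate (log2 CPM), the median was -0.003, and Alas1 (-0.08) and Alad (-0.07) lay nearer to 0 while Cpox was at 0.43 (standard error 0.10). The part of hepatocyte RNA, or of RNA from other cell types, in the values of the 6 enzymes was not tested. For Cpox, the difference was about as large without that library.

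**Figure D3:**
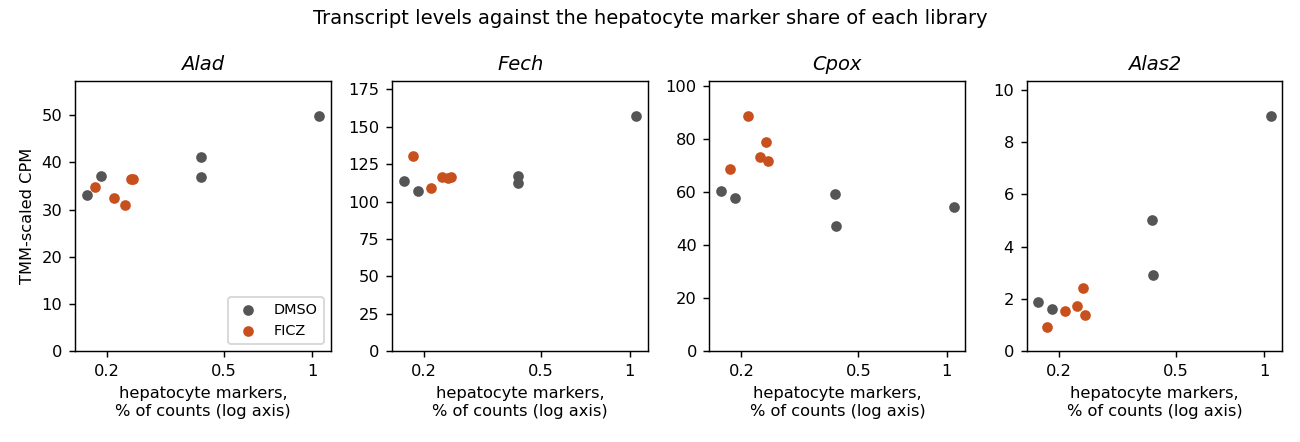
TMM-scaled CPM (y axis) of Alad, Fech, Cpox and Alas2 against the share of counts on the 13 hepatocyte markers (x axis, % on a log axis), with 1 point per library in grey for DMSO and orange for FICZ. The DMSO point at 1.06% is the highest for Alad (49.8 CPM), Fech (157 CPM) and Alas2 (8.99 CPM) and lies among the other DMSO points for Cpox (54.4 CPM).

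Levels between enzymes were compared as CPM per kilobase of merged exons. In DMSO the order of these levels was Alad (21.1), Alas1 (17.4), Urod (17.1), Fech (8.78), Cpox (8.38), Ppox (4.59) and Uros (3.92). Neighbours in this order overlapped over the 5 libraries except Urod and Fech, and Cpox and Ppox. In FICZ the order of levels was Alad (18.3), Urod (16.9), Alas1 (15.6), Cpox (11.5), Fech (8.50), Ppox (4.21) and Uros (3.71). The libraries of Cpox then lay below those of Alas1 and above those of Fech, and Fech lay above Ppox, while the other neighbours overlapped. The order rested on the length used. Per kilobase of the longest transcript, the means of Alas1 (31.6) and Urod (29.7) were above that of Alad (22.4) in DMSO, but their libraries overlapped. Uros (6.41) lay above Ppox (4.70) without overlap. In FICZ, on this scale, the level of Cpox (24.6) lay above that of Alad (19.3) without overlap. Its mean was behind those of Urod (29.3) and Alas1 (28.3), whose libraries overlapped with those of Cpox.

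**Figure D4:**
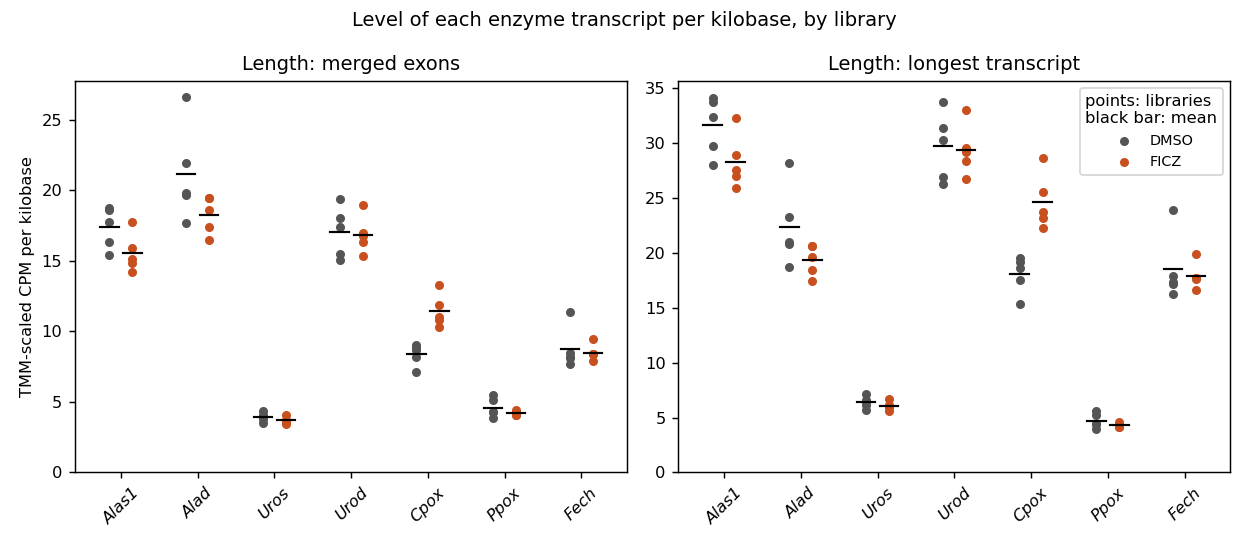
TMM-scaled CPM per kilobase (y axis) of the 7 enzymes by library, DMSO in grey and FICZ in orange with the mean as a black bar, on the left per merged exon length and on the right per length of the longest transcript. Alas1 and Urod lie in the upper part of both panels and Uros and Ppox at the bottom, and the Cpox mean per kilobase of merged exons moves from 8.38 in DMSO to 11.5 in FICZ.

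The partners of the pathway were described next, as a list of 15 genes that hold the erythroid synthase Alas2, mitochondrial carriers and transporters and heme chaperones. Of these, 9 had higher and 6 lower fitted values with FICZ, with a median log2 fold change of 0.01. With edgeR and with DESeq2, 0 passed the adjusted threshold. In each, 1 had an unadjusted p of 0.05 or less, where edgeR had 4.82% of all genes. That gene was Alas2, the synthase of red cell precursors (chromosome X). It had 5.04, 1.87, 1.63, 2.93 and 8.99 CPM in DMSO replicates 1 to 5 and 2.44, 1.53, 1.39, 0.944 and 1.73 CPM in FICZ replicates 1 to 5. Alas2 was lower with FICZ in 5 of 5 pairs, as were 2.81% of all genes tested. In pairs 2 and 3 its log2 difference was -0.28 and -0.22, where that of Alb was 0.37 and 0.43. The DMSO libraries that were high in Alas2, replicates 1, 4 and 5, were the ones with the most hepatocyte marker RNA. Among DMSO libraries they also had the most macrophage marker RNA (0.00382%, 0.00318% and 0.00628% of counts). On the log2 scale the difference was -1.35 (standard error 0.46, adjusted p = 0.999 with edgeR), -0.83 without DMSO replicate 5 and -0.41 with Alb as a covariate. The part of hepatocyte or macrophage RNA in the result was not tested. The exact permutation test gave p = 0.0556. Tspo, a protein of the outer mitochondrial membrane, had a log2 fold change of -0.12, and Abcb6, a porphyrin transporter, had 0.06 (adjusted p = 0.999 for each with edgeR).

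Heme breakdown and transport held 9 genes, of which 7 had higher and 2 lower fitted values, with a median log2 fold change of 0.12. With edgeR 0 passed the adjusted threshold and 0 the unadjusted threshold of 0.05, and DESeq2 gave the same counts. Hmox1 encodes heme oxygenase 1, which opens the heme ring. It had 620.1, 515, 872, 343 and 291 CPM in DMSO replicates 1 to 5 and 650.1, 690.4, 1018, 484 and 293 CPM in FICZ replicates 1 to 5. The spread between replicate numbers was wider than the difference within each number. Hmox1 was higher with FICZ in 5 of 5 pairs, as were 4.32% of all genes tested. The log2 fold change was 0.25 (standard error 0.35) with edgeR and 0.24 (standard error 0.09, adjusted p = 0.929) with the replicate block. With the block in edgeR, 4.65% of all genes had an unadjusted p of 0.05 or less and 2.48% were also higher. In this list 3 genes had such a p, all higher: Hmox1, the heme exporter gene Flvcr1 (0.18 without the block) and the heme transporter gene Slc48a1 (0.14 without the block). With the block in DESeq2 there was 1 such gene. Slc46a1, a transporter of folate and heme, had a log2 fold change of -0.34, which was 0.04 with Alb as a covariate.

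Among 10 genes of heme sensing and Alas1 control, 4 had higher and 6 lower fitted values (median log2 fold change -0.07), and 0 passed the adjusted threshold of edgeR or of DESeq2. The nuclear receptor genes Nr1i3 (-1.198) and Nr1i2 (-1.03), which are abundant in liver, were the 2 with an unadjusted p of 0.05 or less in both tools. At that p, edgeR had 3.49% of all genes lower. With limma-voom, with the replicate block in edgeR and without DMSO replicate 5, 0 of the 10 genes had such a p. With the block in DESeq2, 2 did. With Alb as a covariate the log2 fold changes of Nr1i3 and Nr1i2 were -0.20 and -0.18. Eif2ak1, which encodes the heme-regulated kinase of translation initiation, went from 73.6 ± 2.703 CPM without to 79.3 ± 3.91 CPM with FICZ, and its groups overlapped. It was higher in 5 of 5 pairs, as were 4.32% of all genes tested (log2 fold change 0.11, adjusted p = 0.999 with edgeR, and p = 0.0238 in the exact permutation test).

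Of 12 iron handling genes, 5 had higher and 7 lower fitted values (median log2 fold change -0.02). With edgeR and with DESeq2 0 passed the adjusted threshold and 0 the unadjusted one. Directions in this list turned with the libraries, since 10 were higher and 2 lower without DMSO replicate 5. Fth1, the ferritin heavy chain gene, had a log2 fold change of 0.09, and Ncoa4, which delivers ferritin for degradation, had 0.03. Tfrc, the transferrin receptor gene, had 0.22 (standard error 0.26), and 0.19 (standard error 0.08, adjusted p = 0.929) with the block in edgeR.

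Among 15 genes of hemoproteins and heme attachment, 9 had higher and 6 lower fitted values (median log2 fold change 0.04), with 1 past the adjusted threshold of edgeR and 3 at an unadjusted p of 0.05 or less, all higher. The 1 was Cyp1a1, whose protein is an AHR-induced P450, at 26.8 ± 12.8 CPM without and 255 ± 92.4 CPM with FICZ (log2 fold change 3.25, adjusted p = 0.0189 with edgeR). The other two were Cyp1b1 (0.62, adjusted p = 0.147) and Ptgs1 (0.39, adjusted p = 0.999), and Ptgs1 encodes cyclooxygenase 1. With DESeq2 2 genes of the list passed, Cyp1a1 and Cyp1b1. Of the 4 AHR targets taken as a check of the treatment, Cyp1a1, Ahrr (1.66, adjusted p = 0.00324) and Tiparp (0.91, adjusted p = 0.0335) passed with edgeR, and with the block Cyp1a1 and Ahrr did. DESeq2 called all 4. The edgeR calls of this check moved with the libraries, from 1 gene without DMSO replicate 1 or 2 or FICZ replicate 1, 2 or 3 to 4 genes without DMSO replicate 5. Ahrr passed in each of these fits. Cyp1a1 missed the threshold in the 5 fits with 1 gene, with Alb as a covariate and with no filter on low counts (adjusted p 0.0656 to 0.0924 over these edgeR fits), and Tiparp also missed it with the block (adjusted p = 0.0509). The log2 fold change of Cpox, 0.45, was the smallest when set beside those of these 4 genes.

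**Figure D5:**
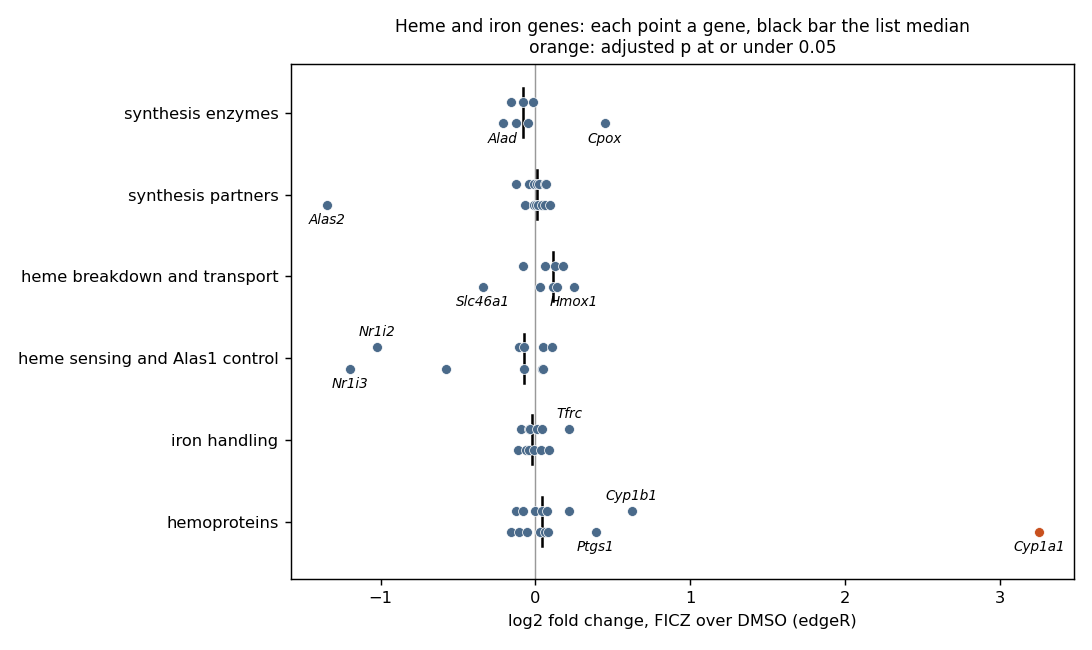
Log2 fold change of FICZ over DMSO from edgeR (x axis) for the 7 synthesis enzymes and the genes of 5 further lists, with 1 point per gene, a black bar at the list median and orange for an adjusted p at or under 0.05. Most points lie near 0, Cpox lies at 0.45, and the orange point is Cyp1a1 at 3.25.

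The genes whose log2 CPM over the 10 libraries ran most like each enzyme are given as a description, since all points share the 2 groups and the same libraries. For Cpox they were Plekha8 (Pearson r = 0.966, Spearman rho = 0.988) and Ahrr (r = 0.943, rho = 0.939). These had log2 fold changes of 0.34 and 1.66. For Alas1 they were Gpr182 (r = 0.942, rho = 0.964) and Ints5 (r = 0.940, rho = 0.891). For Alad they were Slc25a39 (r = 0.963, rho = 0.794) and Cisd3 (r = 0.958, rho = 0.818). For Fech they were Oxa1l (r = 0.970, rho = 0.830) and Elovl1 (r = 0.969, rho = 0.915). Those of Alad and Fech had a lower rho than r. Uros ran most like Pde4c (r = 0.961) and Shld1 (r = 0.928), Urod most like Edem2 (r = 0.961) and Slc25a20 (r = 0.955), and Ppox most like Rhbdd3 (r = 0.967) and Mfsd3 (r = 0.949). None of the 7 enzymes was among the genes most like another.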

How the data were processed

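Bulk RNA from cultured ASPCs was measured in 10 libraries, 5 treated with DMSO and 5 with 100 nM FICZ for 6 hr. The authors aligned reads with STAR 2.7.7 to mm10, per the labels and the methods, and deposited raw counts per gene symbol. The counting program, annotation and strand setting are not given in the sources used here. The deposited counts were tested with edgeR 4.0.16 in R 4.3.3 (quasi-likelihood test, TMM, filter by expression, robust dispersions, Benjamini-Hochberg adjustment over 14251 genes, threshold 0.05). Single genes were also compared by the exact permutation test over 252 arrangements (log2 CPM, prior count 2). Alternatives were DESeq2 1.42.0, limma-voom (limma 3.58.1), other scalings and filters, a threshold of 0.1, the replicate block, Alb as a covariate and leaving out each library. The fits were tested on simulated data.

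The labels number the libraries 1 to 5 in both groups without saying what a number marks. Same-numbered libraries deviated together from their group means, with correlations across genes of 0.15 to 0.32 in the 5 pairs, and different-numbered libraries had -0.40 to 0.37. Since every same-numbered correlation was over 0.1, the numbers were taken to pair the libraries, although DMSO replicate 4 with FICZ replicate 5 (0.37) exceeded all same-numbered pairs. FICZ replicate 2 was also over 0.1 with DMSO replicate 3 (0.30) and DMSO replicate 1 (0.23). The value of 0.1 thus did not separate same-numbered from different-numbered libraries, and the pairing is an inference. Libraries of a group differed beyond sampling noise (chi-square per degree of freedom 16.4 to 285 over 20 pairs). Floors of 3 counts reflect counting error alone. The table had 0 columns of other samples.

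The enzymes, the gene lists and the alternatives were chosen with earlier results of these data known. Genes named were the 7 enzymes, of each pathway list the 3 with the smallest unadjusted p and every gene past the threshold, Alas2, Hmox1, Tfrc and the 4 AHR targets, and for each enzyme the 2 genes with the highest Pearson r. Not every gene of the rule and the lists is reported here. Coordinates and lengths came from the GENCODE annotation of GRCm38, and promoter sequences from RefSeq.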

Additional observations from a re-analysis of the deposited data

Results flagged for a closer look

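Among 15 genes, the 7 enzymes and the 4 AHR targets among them, 30 groups of 5 libraries were examined for a library far from the others, and 2 were found, where chance gives about 1.5, or 1 in 20 groups. Fech stood apart in DMSO replicate 5, at 157 CPM against 117 CPM in the next library, a gap of 0.792 of the group's range. Ahrr stood apart in DMSO replicate 4, at 6.24 CPM against 10.6 CPM, a gap of 0.817 of the range.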

How the results depend on the processing

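The number of enzymes past the adjusted threshold was 0 with edgeR under all scalings, filters and covariates tried, with limma-voom, at a threshold of 0.1 and without any 1 library (0 to 0), and 1 with DESeq2 and 1 with DESeq2 and the replicate block. That gene was Cpox in both, at 0.45 (adjusted p = 0.0457) and 0.45 (adjusted p = 0.000657). Its log2 fold change ranged from 0.39 to 0.49 without any 1 library, with edgeR adjusted p from 0.392 to 1.00. The block for the replicate number changed no call among the enzymes. With edgeR 0 passed with or without it, and with DESeq2 Cpox alone passed with or without it. Urod turned to 0.0857 with Alb as a covariate and ranged from -0.0613 to 0.0323 without any 1 library, being above 0 without DMSO replicate 4, DMSO replicate 5 or FICZ replicate 2. Fech turned to 0.0754 with Alb as a covariate and ranged from -0.0892 to 0.0629 without any 1 library, being above 0 without DMSO replicate 5. The cause of these turns was not tested. Alas1, Alad, Uros and Ppox were lower in every fit, and Cpox was higher in every fit. With the longest transcript as length, 2 of the 7 enzymes kept their place in the DMSO order of levels. The exact permutation tests kept their sign and side of the threshold with a prior count of 0.5 or 5. The lowest count of an enzyme in any library was 515 (Uros), a counting error of 4.41%, against coefficients of variation of 3.86% to 16.6% within groups.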
